A study of Homo sapiens with 18 samples.

Results

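The 8 genes described here, MT-ND1, MT-ND2, MT-ND3, MT-ND4L, MT-ND4, MT-ND5, MT-ND6 and MT-CYB, are the subunits of respiratory complexes I and III that human mitochondrial DNA encodes. They were chosen by symbol after the Ensembl identifiers of a deposited table of log2 TPM values (an abundance scaled for gene length and sequencing depth) had been matched to gene names, and all 8 of 8 were found among its 15258 genes. The table holds 9 RNA-seq libraries of input mRNA from MEL624, an established human melanoma cell line. The control line is labelled wild type and carries a random sgRNA. The knockout lines, KO1 and KO2, are 2 independent clones edited at PCIF1, and the control is 1 line. Each line had 3 libraries, A, B and C, from replicates that the series calls biological. A further 9 libraries of the series, of mRNA pulled down with an antibody to m6A, were not analysed here.

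PCIF1 methylates the adenosine beside the cap of nuclear mRNAs to give m6Am. Mitochondrial mRNAs are made inside the organelle by the polymerase POLRMT, as long transcripts of a whole strand, and carry no such cap. Enzymes cut the mRNAs out of these transcripts, mostly at the tRNAs between them, and the poly(A) polymerase MTPAP extends the 3′ ends of most mRNAs. MT-ND6 alone among the mRNAs is read from the opposite template strand, as part of the light-strand transcript. The ND proteins form the membrane arm of complex I, which takes electrons from NADH and pumps protons, and cytochrome b, the MT-CYB product, is the catalytic core of complex III, which oxidises ubiquinol.

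The 3′ ends of the genes show how closely they are packed and which of them depend on polyadenylation for a stop codon. The last 21 bases of each gene on hg38, read in the sense direction with GENCODE coordinates, are given next, with the encoded stop codon, or the part of one that the DNA holds, in capitals.
MT-ND1, chrM:4242-4262, plus strand: cagcattccccctcaaaccTA
MT-ND2, chrM:5491-5511, plus strand: cttttatactaataatcttaT
MT-ND3, chrM:10384-10404, plus strand: aaggattagactgaaccgaaT
MT-ND4L, chrM:10746-10766, plus strand: ctaaacctactccaatgcTAA
MT-ND4, chrM:12117-12137, plus strand: tcattaccgggttttcctctT
MT-ND5, chrM:14128-14148, plus strand: accctactcctaatcacaTAA
MT-ND6, chrM:14149-14169, minus strand: gagattgctcgggggaatAGG
MT-CYB, chrM:15867-15887, plus strand: acaaaatactcaaatgggccT
MT-ND1 ends in TA, and MT-ND2, MT-ND3, MT-ND4 and MT-CYB end in a lone T, so these mRNAs gain their stop codon only when a poly(A) tail is added. MT-ND4L and MT-ND5 encode a whole TAA, and MT-ND6 ends in AGG.

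MT-ND4L and MT-ND4 lie on 1 bicistronic mRNA and share 7 bases, in which the start of MT-ND4 and the stop of MT-ND4L are read in different frames. The shared bases are in capitals in the next sequence.
MT-ND4L and MT-ND4, chrM:10750-10776, plus strand: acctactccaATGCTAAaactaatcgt
MT-ND5 (12337 to 14148 on chromosome M) and MT-ND6 (14149 to 14673) meet end to end on opposite strands. The coding regions run from 297 bases in MT-ND4L to 1812 in MT-ND5, with 346 in MT-ND3, 525 in MT-ND6, 956 in MT-ND1, 1042 in MT-ND2, 1141 in MT-CYB and 1378 in MT-ND4. As mRNA, MT-ND6 holds 35.6% G and 7.0% C, whereas the other members hold 9.5% to 12.1% G. The libraries were made with a directional kit, but whether the counting used strand is not stated in the labels, so reads of MT-ND6 and of RNA antisense to it may not have been told apart. How a read in the 7 shared bases was assigned is not stated either.

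Reads counted on genes, recovered from the deposited values, ranged from 7848089 to 11393206 per library. PCIF1 itself stood at 55.2 to 62.0 TPM in control, 22.0 to 25.3 TPM in KO1 and 58.0 to 64.7 TPM in KO2, so it was low in KO1 only. A frameshift can leave the level of an mRNA as it was, so this is no check of KO2. Of 10 melanocyte-lineage markers, 2 (MITF and CSPG4) had a row in the table, with a summed level of 122 to 123 TPM in control, 137 to 146 in KO1 and 123 to 135 in KO2. The 2 moved in opposite directions in KO1: MITF averaged 37.1 TPM in control, 26.3 TPM in KO1 (limma adjusted p = 0.000531) and 50.02 TPM in KO2 (0.00127), and CSPG4 averaged 85.3, 116 (0.000847) and 78.5 TPM (0.198). PMEL, MLANA, TYR and SOX10 had none. Among markers of other cells, 3 of 7 fibroblast genes had rows (12.9 to 13.1 TPM summed in control, 12.8 to 13.5 in KO1, 10.8 to 11.4 in KO2). Within that sum LUM was higher in both clones (0.0665 TPM in control against 2.39 and 1.15 TPM, limma adjusted p = 6.98e-05 and 0.000242) and PDGFRB lower (12.2, 10.0 and 9.49 TPM; 0.0193 and 0.00596). Rows were also present for 1 of 6 immune genes (CD68, 180 to 192, 129 to 139 and 134 to 143 TPM), 2 of 6 epithelial genes (KRT8 and KRT18, 1061 to 1082, 948 to 988 and 851 to 928 TPM) and 0 of 4 endothelial genes. The part of these shifts in the results was not tested. In bulk RNA, fewer cells of a kind and less RNA per cell cannot be told apart. With 1 control line and 2 clones, the p-values reflect only how libraries of 1 line vary, which says nothing of variation among edited lines, and both knockout comparisons share the same 3 control libraries.

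All 8 members were abundant. In the control line MT-ND4 ranked 15 among 15258 genes by mean TPM, MT-ND4L 27, MT-ND3 37, MT-ND5 38, MT-CYB 41, MT-ND6 42, MT-ND2 59 and MT-ND1 84. Together they took 1.5% ± 0.0123 of all TPM in control, 1.96% ± 0.191 in KO1 and 1.60% ± 0.0572 in KO2 (SD, n = 3 each). Their libraries held between 34515 and 56753 reads on the members. By length-normalised level the order in control was MT-ND4, MT-ND4L, MT-ND3, MT-ND5, MT-CYB, MT-ND6, MT-ND2 and MT-ND1. Neighbours in this order whose libraries overlapped were MT-ND3 with MT-ND5, MT-CYB with MT-ND6, and MT-ND6 with MT-ND2. In KO1 MT-CYB stood in place 3, level with MT-ND4L within the range of its libraries, and every neighbouring pair below MT-ND5 overlapped, as did MT-ND5 with MT-ND2. In KO2 MT-CYB also held place 3, below MT-ND4L and above MT-ND5 with no overlap, and MT-ND5, MT-ND3, MT-ND2 and MT-ND6 overlapped each with the next.

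In KO1, 6 of the 8 mRNAs rose and 0 fell, and MT-ND3 and MT-ND6 did not pass the test. In KO2 only MT-ND2 and MT-CYB rose, and again 0 fell. At an unadjusted p under 0.05 and with limma-voom on recovered reads the counts were also 6 and 0, and 2 and 0. With quantile normalization MT-ND4 rose in KO2 as well, and with only the control and KO2 fitted so did MT-ND5. The test was limma on log2 TPM over all 9 libraries, with Benjamini-Hochberg adjustment over 14512 genes and a call at an adjusted p under 0.05. Calls were common in these data: 34.3% of all tested genes were called in KO1, 20.2% as higher and 14.1% as lower. In KO2 30.4% were called, 15.6% as higher and 14.8% as lower. Of the KO1 calls 58.9% were higher, and 47.1% with limma-voom. The median log2 fold change of the 8 members was 0.37 in KO1 and 0.07 in KO2, beside 0.04 and 0.01 over all tested genes.

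**Figure D1:**
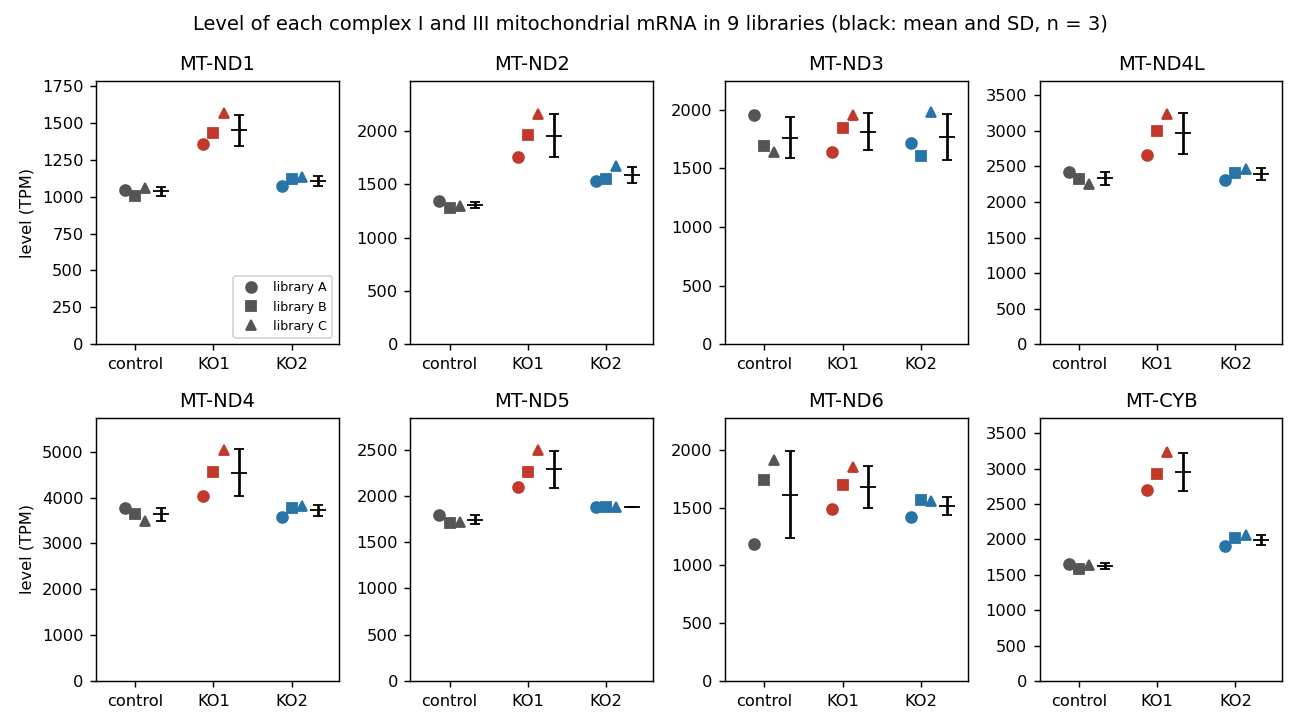
Level in TPM (vertical axes, from 0, with a scale of its own in each panel) of the 8 mRNAs in the control, KO1 and KO2 libraries, with replicates as symbols and the mean and SD (n = 3) in black. The 3 KO1 libraries lie above the 3 control libraries for 6 of the 8 mRNAs, and the points of MT-ND3 and MT-ND6 overlap across lines.

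MT-CYB, the only member of complex III, changed most. It measured 1654, 1576 and 1638 TPM in control libraries A, B and C, 2692, 2926 and 3238 TPM in KO1, and 1912, 2015 and 2056 TPM in KO2. The 3 lines did not overlap, with KO1 highest and KO2 between KO1 and control. These levels rest on 4318 to 9691 reads per library. MT-CYB was 1.81-fold higher in KO1 than in control (log2 fold change 0.86, SE 0.0600, limma adjusted p = 5.71e-06). KO2 showed a smaller change (log2 fold change 0.30, limma adjusted p = 0.00422), and KO2 lay below KO1 by 0.56 (log2 fold change -0.56, limma adjusted p = 0.000125).

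MT-ND1 and MT-ND2 encode membrane subunits of complex I, and their genes lie close together, just downstream of the rRNA genes. MT-ND1 measured 1047, 1002 and 1058 TPM in control, 1356, 1434 and 1565 TPM in KO1, and 1071, 1122 and 1135 TPM in KO2. Each KO1 library exceeded all control and KO2 libraries, and each KO2 library lay above all 3 control libraries by a smaller margin. The log2 fold change was 0.48 in KO1 (SE 0.0508, limma adjusted p = 8.74e-05) and 0.10 in KO2 (95% confidence interval -0.014 to 0.21, limma adjusted p = 0.171).

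MT-ND2 measured 1340, 1278 and 1300 TPM in control, 1752, 1961 and 2156 TPM in KO1, and 1534, 1544 and 1668 TPM in KO2. As with MT-CYB, the libraries of the 3 lines did not overlap and KO2 lay between the others. The log2 fold change was 0.58 in KO1 (SE 0.0664, limma adjusted p = 0.000154) and 0.28 in KO2 (limma adjusted p = 0.0106).

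MT-ND4L and MT-ND4 encode the 2 subunits of the bicistronic mRNA, and MT-ND4 is one of the antiporter-like proton-pumping subunits. MT-ND4L measured 2422, 2321 and 2246 TPM in control, 2664, 2995 and 3237 TPM in KO1, and 2309, 2407 and 2468 TPM in KO2. MT-ND4 measured 3782, 3634 and 3497 TPM in control, 4024, 4561 and 5039 TPM in KO1, and 3569, 3779 and 3806 TPM in KO2. For both, KO1 lay above the control without overlap, and KO2 and control overlapped.

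The KO1 log2 fold changes were 0.34 for MT-ND4L (SE 0.0637, limma adjusted p = 0.00256) and 0.31 for MT-ND4 (SE 0.0709, limma adjusted p = 0.0072). In KO2 they were 0.04 (95% confidence interval -0.10 to 0.18) and 0.03 (-0.13 to 0.19), with limma adjusted p = 0.68 and 0.773. Quantile normalization moved the KO2 value of MT-ND4 to 0.19 and made it a call (limma adjusted p = 0.00217), and took KO2 against KO1 from -0.28 to -0.13. The ratio of MT-ND4L to MT-ND4 in TPM was 0.641 ± 0.00177 in control, 0.654 ± 0.0102 in KO1 and 0.644 ± 0.00632 in KO2 (SD, n = 3 each), so the pair kept 1 ratio within a few percent in all 9 libraries.

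MT-ND5 encodes the antiporter-like subunit at the far end of the membrane arm. It measured 1794, 1709 and 1722 TPM in control, 2096, 2262 and 2499 TPM in KO1, and 1881, 1877 and 1885 TPM in KO2. KO1 exceeded the other lines without overlap, and the KO2 libraries, which lie almost on 1 value, all exceeded the control libraries. The log2 fold change was 0.39 in KO1 (SE 0.0548, limma adjusted p = 0.000528) and 0.11 in KO2 (95% confidence interval -0.011 to 0.23, limma adjusted p = 0.156). Fitted on the control and KO2 libraries alone, the KO2 difference of MT-ND5 passed the test (limma adjusted p = 0.0428).

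MT-ND3, a small subunit near the ubiquinone-binding site, passed the test in neither clone. It measured 1959, 1687 and 1642 TPM in control, 1641, 1840 and 1955 TPM in KO1, and 1719, 1604 and 1984 TPM in KO2, on 1223 to 2202 reads per library. The 3 lines overlapped almost completely. Its log2 fold change was 0.04 in KO1 (95% confidence interval -0.17 to 0.25, limma adjusted p = 0.772) and 0.00 in KO2 (-0.20 to 0.21, limma adjusted p = 0.981). The upper bound of 0.25 in KO1 lies below the KO1 values of the 6 called members (0.31 to 0.86), but the difference between MT-ND3 and these members was not tested, and the intervals do not show that MT-ND3 was level across lines.

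MT-ND6, the light-strand mRNA, measured 1187, 1739 and 1915 TPM in control, 1490, 1693 and 1852 TPM in KO1, and 1420, 1569 and 1554 TPM in KO2. Control library A stood far below its own line, with 2024 reads of 11393206 where library C held 2621 of 9098152, and it lay below all 6 knockout libraries. The log2 fold change was 0.08 in KO1 (95% confidence interval -0.26 to 0.42, limma adjusted p = 0.719) and -0.06 in KO2 (-0.40 to 0.27, limma adjusted p = 0.787). Without control library A the values were -0.13 in KO1 (limma adjusted p = 0.311) and -0.27 in KO2 (limma adjusted p = 0.0509), so this library decided the direction in KO1 and moved the KO2 value by over 1.5 times. The ratio of MT-ND6 to MT-ND5, which meet end to end, ran from 0.661 to 1.11 in control, 0.711 to 0.748 in KO1 and 0.755 to 0.836 in KO2.

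**Figure D2:**
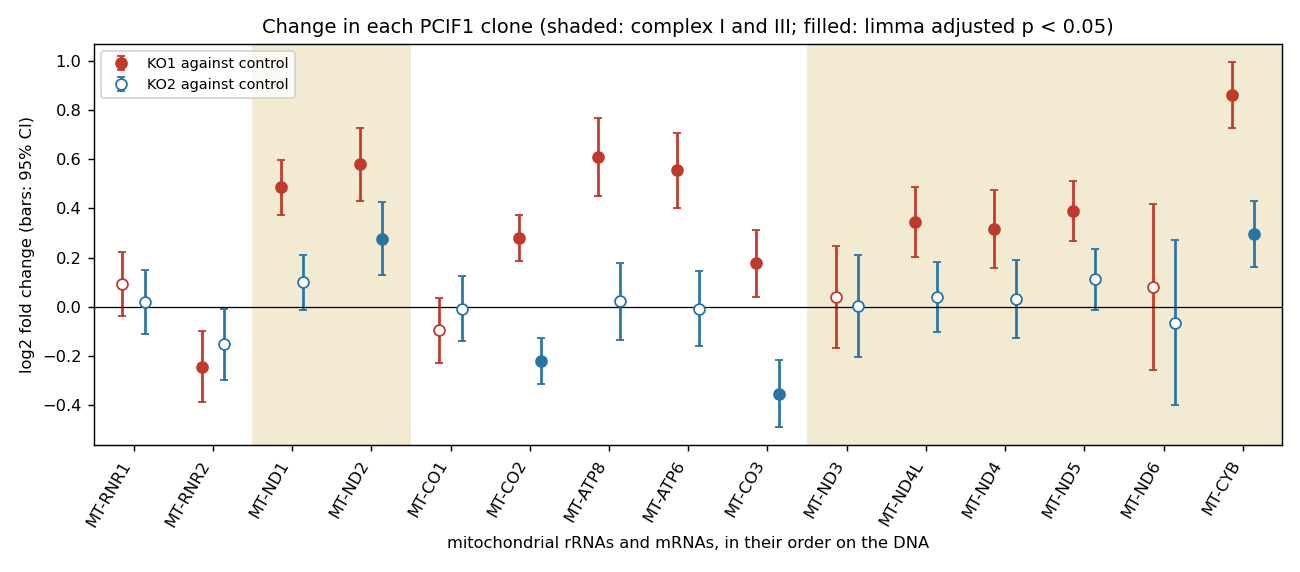
Log2 fold change with its 95% confidence interval (vertical axis) of the mitochondrial rRNAs and mRNAs in their order on the DNA (horizontal axis), in KO1 (red) and KO2 (blue) against the control line. Filled points passed the limma test and shading marks the complex I and III genes: 6 of 8 are filled for KO1, MT-CYB being highest at 0.86, and 2 of 8 for KO2.

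The clones differed from each other in 6 of the 8 mRNAs. MT-ND1, MT-ND2, MT-ND4L, MT-ND4, MT-ND5 and MT-CYB were lower in KO2 than in KO1, and MT-ND3 and MT-ND6 were not called, with log2 fold changes of -0.04 and -0.14. Without KO2 library A the call of MT-ND4 was lost (log2 fold change -0.25, limma adjusted p = 0.0527). In this comparison 28.7% of all tested genes were called, 16.9% as lower and 11.8% as higher. Of these calls 41.1% were higher, and 55.5% with each library centred on its median gene, which kept the 6 calls of the members. The median over the 8 members was -0.29, beside -0.04 over all tested genes. By libraries alone, 6 of 8 members lay wholly above the control in KO1, where 29.1% of tested genes did. In KO2 4 did, MT-ND1 and MT-ND5 joining MT-ND2 and MT-CYB, where 22.3% of tested genes did, and 6 lay wholly below KO1 in KO2, where 26% did.

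The mRNAs of complexes IV and V, from the same transcripts, are the nearest comparison. In KO1 4 of these 5 rose and 0 fell. MT-ATP8 and MT-ATP6, subunits of ATP synthase, had log2 fold changes of 0.61 and 0.55, and MT-CO2 and MT-CO3, subunits of cytochrome c oxidase, of 0.28 and 0.18. MT-CO3 passed narrowly (limma adjusted p = 0.0473), and its KO1 libraries overlapped the control libraries. The values of MT-ATP8 and MT-ATP6 exceed those of every member except MT-CYB and, for MT-ATP6, MT-ND2. MT-CO1 measured 6420 TPM in control and 6009 TPM in KO1 and was not called (log2 fold change -0.10, limma adjusted p = 0.244), though limma-voom on reads called it lower, making 1 of 5. In KO2 MT-CO2 (log2 fold change -0.22) and MT-CO3 (-0.35) fell (limma adjusted p = 0.00295 and 0.00168), and 0 of the 5 rose, also at an unadjusted p under 0.05 and with limma-voom.

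Neither of the 2 rRNAs was called higher in a clone. MT-RNR2 fell in KO1 (log2 fold change -0.24, limma adjusted p = 0.0157) and was not called in KO2 (-0.15, limma adjusted p = 0.106), although its KO2 libraries all lay below the control libraries and limma-voom called it lower (-0.17, adjusted p = 0.000902). MT-RNR1 was called in neither clone (0.09 and 0.02). With all mitochondrial genes summed, their share of TPM was 11.7% ± 0.448 in control, 12.5% ± 0.617 in KO1 and 11.5% ± 0.51 in KO2 (SD, n = 3 each). By reads, which are not scaled for length, it was 3.58% ± 0.134, 3.58% ± 0.186 and 3.45% ± 0.177 in the same order. The members took 0.415% ± 0.00513 of reads in control, 0.541% ± 0.0542 in KO1 and 0.442% ± 0.0149 in KO2.

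Within the 13 mitochondrial mRNAs, the members' joint share of TPM was 43.4% ± 0.305 in control, 46.3% ± 0.705 in KO1 and 47.1% ± 0.346 in KO2 (SD, n = 3 each). The highest control library held 43.7% and the lowest knockout library 45.7%, so both clones lay above the control without overlap. This sum also moves with the other 5 mRNAs. In control, KO1 and KO2, MT-CO1 took 18.5%, 14.2% and 18.8%, MT-CO2 14.3%, 14.3% and 12.6%, and MT-CO3 12.4%, 11.4% and 9.90%. MT-ATP6 took 7.61%, 9.15% and 7.73%, and MT-ATP8 3.74%, 4.67% and 3.89%. How far the joint share rests on MT-CYB alone was not tested. MT-CYB took 4.68% of the 13 mRNAs in control, 6.96% in KO1 and 5.88% in KO2. MT-ND2 took 3.77%, 4.61% and 4.67%, which places the clones level with each other. MT-ND3 took 5.08%, 4.27% and 5.21%, so its share was lowest in KO1, where its neighbours on the DNA rose.

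Ratios between members need no sum over genes. MT-CYB stood to MT-ND5, its heavy-strand neighbour, as 0.932 ± 0.0165 in control, 1.29 ± 0.00586 in KO1 and 1.06 ± 0.0391 in KO2. MT-CYB to MT-ND3 was 0.926 ± 0.0768, 1.63 ± 0.0348 and 1.13 ± 0.112 in the same order, and MT-ND3 to MT-ND4L was 0.756 ± 0.0462, 0.611 ± 0.00658 and 0.738 ± 0.0687. MT-ND2 to MT-ND1 was 1.26 ± 0.0282, 1.35 ± 0.0466 and 1.43 ± 0.047. Centring each library on the mRNAs of complexes IV and V left 3 members higher in KO1 (MT-ND1, MT-ND2 and MT-CYB), made MT-ND3 lower there (log2 fold change -0.26, limma adjusted p = 0.0167), and ended the KO1 calls of MT-ND4L, MT-ND4 and MT-ND5. In KO2 the same centring gave 4 higher members, MT-ND1 and MT-ND5 (log2 fold changes 0.21 and 0.22) beside MT-ND2 and MT-CYB. The mRNAs centred on include MT-CO2 and MT-CO3, which fell in KO2.

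**Figure D3:**
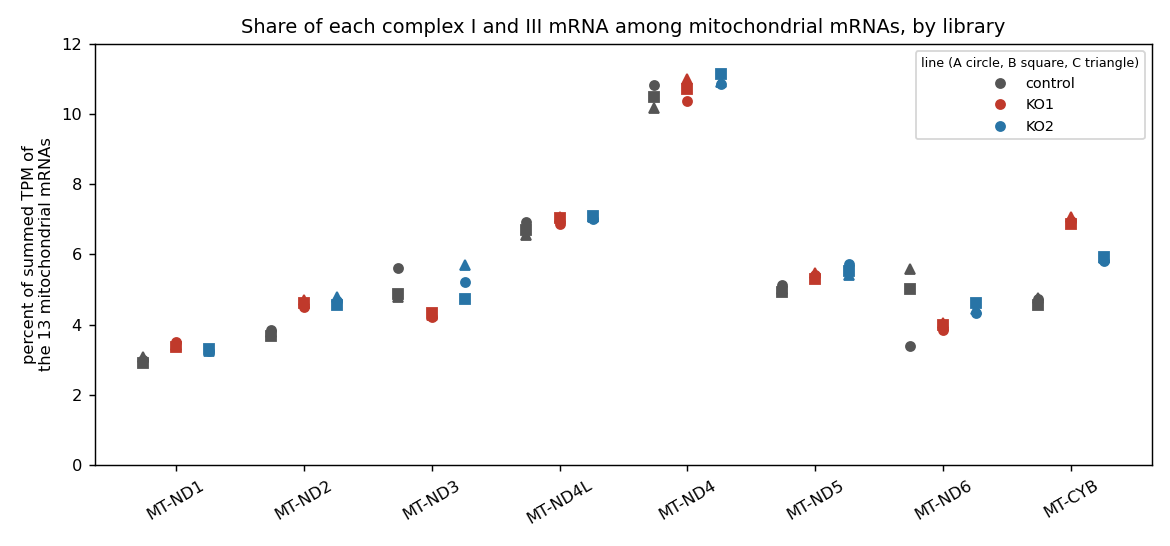
Share of each complex I and III mRNA in the summed TPM of the 13 mitochondrial mRNAs (vertical axis, percent) in each library, by line (colour) and replicate (symbol). MT-CYB rises from 4.68% in control to 5.88% in KO2 and 6.96% in KO1 without overlap, and control library A stands apart for MT-ND6 at 3.39%.

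The spread between the KO1 libraries was shared by all 8 members, and that between the control or KO2 libraries by fewer. In KO1 library A was lowest and library C highest for 8 of 8 members, and also for all 5 mRNAs of complexes IV and V. The coefficient of variation of MT-ND4 in KO1 was 11.2%, where counting error alone gives 0.774%, and that of MT-CYB was 9.28% against 1.06%. In control it was 3.93% and 2.53%. KO1 was more variable than control for MT-ND4, MT-CYB and the other members except MT-ND3 and MT-ND6. There control had the larger coefficient of variation (9.72% against 8.77% in KO1 for MT-ND3, and 23.6% against 10.8% for MT-ND6). In control library A was highest for 6 members and lowest for MT-ND6, by 0.41 below the line mean on the log2 scale. MT-ND5 in KO2 had a coefficient of variation of 0.202%, below the 1.08% that counting gives. In KO2 library C was highest for 7 members and library A lowest for 6.

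**Figure D4:**
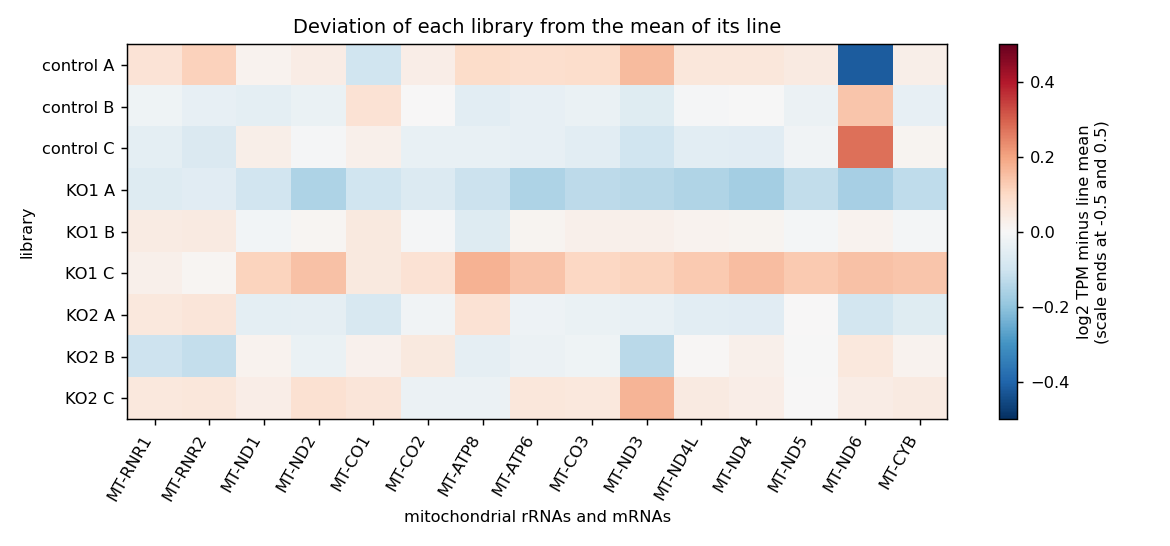
Log2 TPM of each library minus the mean of its own line (colour, scale from -0.5 to 0.5) for the mitochondrial rRNAs and mRNAs. KO1 libraries A and C are low and high across all mRNAs, and MT-ND6 in control library A, at -0.41, is the most extreme cell.

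Across the 9 libraries, which share their line means, log2 levels of the 6 called members correlated with one another at Pearson r from 0.898 to 0.995 over 15 pairs. MT-ND3 correlated with these 6 at 0.271 to 0.485 and MT-ND6 at 0.230 to 0.314, and the correlation between MT-ND3 and MT-ND6 was -0.232. The 6 were grouped by their calls in these same libraries, so this split is not separate evidence that they vary together. Among the 9600 nuclear genes that averaged 10 TPM or more, those most like the members' mean over the 9 libraries were GEN1 (r = 0.970), ENSG00000269825 (0.968), FMR1 (0.966), AP2B1 (0.963) and EML4 (0.962). GEN1 averaged 10.7 TPM in control, 13.1 in KO1 and 11.5 in KO2, and AP2B1 averaged 231, 268 and 245.

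MT-ND2 and MT-ND4 have near-identical copies in nuclear DNA with rows of their own in the table, so the split of their reads is uncertain. MTND2P28 (chromosome 1, 629640 to 630683 on hg38) matches MT-ND2 at 98.4% of aligned bases and held 5.85% to 7.07% of the pair's reads. It rose in both clones (log2 fold changes 0.49 and 0.19, limma adjusted p = 0.000186 and 0.0357), as MT-ND2 did. MTND4P12 (chromosome 5, 134926660 to 134928036) matches MT-ND4 at 95.8% and rose in KO1 (0.41, limma adjusted p = 0.00636) and not in KO2 (0.05). Adding the copies' reads to the gene left the KO1 log2 difference in the share of reads at 0.52 against 0.53 for MT-ND2, and at 0.27 against 0.26 for MT-ND4. No other row of the table was named as a copy of a member, apart from MTND4P35 (89.7% identical to MT-ND4, 1.89 to 5.25 TPM).

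The nuclear genes that transcribe mitochondrial DNA moved in both directions. Of 10 transcription genes, 3 were called in KO1 (1 higher) and 2 in KO2 (1 higher), with median log2 fold changes of -0.12 and 0.02 beside 0.04 and 0.01 over all tested genes. That is 30% of this list in KO1 and 20% in KO2, beside 34.3% and 30.4% of all tested genes. POLRMT, the RNA polymerase, fell in KO1 from 58.0 ± 1.78 to 40.9 ± 4.96 TPM (SD, n = 3; log2 fold change -0.51, limma adjusted p = 0.00476) and measured 62.3 TPM in KO2 (0.09, limma adjusted p = 0.552). TFB1M, a methyltransferase of the small rRNA, fell in KO1 (log2 fold change -0.34). TFAM, which packages mitochondrial DNA and starts transcription, rose in KO2 by 0.90 (limma adjusted p = 4.04e-07) and in KO1 by 0.25 (limma adjusted p = 0.00169). TFAM lies on chromosome 10, and the median KO2 log2 fold change of its 50 nearest tested neighbours was 0.55. MTERF3, of a family of mitochondrial DNA-binding factors, fell in KO2 (log2 fold change -0.34).

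Of 13 replication and maintenance genes, 0 were called in KO1 (1 at an unadjusted p under 0.05, 0 with limma-voom), and 3 rose and 2 fell in KO2. The KO2 calls are 38.5% of this list, beside 30.4% of all tested genes. TWNK, the helicase, and DNA2, a nuclease, rose in KO2 by 0.60 and 0.37. Both also lie on chromosome 10, where the medians of their 50 neighbours were 0.32 and 0.48. The part of these chromosomal neighbourhoods in the KO2 values was not tested.

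Of 23 RNA processing genes, KO1 had 1 higher and 3 lower, and KO2 5 higher and 1 lower. This is 17.4% of the list in KO1 and 26.1% in KO2, below the 34.3% and 30.4% of all tested genes. With limma-voom more of the list was lower: 1 higher and 7 lower in KO1, and 5 higher and 4 lower in KO2. Of the 14512 tested genes limma-voom called 5604 in KO1 and 5059 in KO2. FASTKD5, which is needed to cut at ends that no tRNA marks, such as that between MT-ND5 and MT-CYB, fell in both clones (log2 fold changes -0.47 and -0.54, limma adjusted p = 7.64e-05 and 2.26e-05). Its 50 neighbours on chromosome 20 had medians of -0.54 and -0.56. TRMT61B, an RNA methyltransferase, fell in KO1 (-0.26), and RPUSD3, a pseudouridine synthase, rose in KO2 (0.78), with a median of 0.71 over 49 neighbours on chromosome 3.

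Of 10 genes for mRNA stability, polyadenylation and decay, 4 rose and 1 fell in each clone. That is 50% of this list in each, beside 34.3% of all tested genes in KO1 and 30.4% in KO2. MTPAP, whose tails complete the stop codons shown above, rose in KO1 (log2 fold change 0.35, limma adjusted p = 0.0274) and was not called in KO2 (0.21, limma adjusted p = 0.164). EXOG, a mitochondrial nuclease whose part in mRNA decay was not tested, is 1 of the 4 that rose in each clone (0.48 and 0.58). The 50 neighbours of EXOG on chromosome 3 had medians of 0.07 and 0.41. SUPV3L1, the helicase of the degradosome, rose in KO2 by 0.59, beside a median of 0.45 over its chromosome 10 neighbours. Of 15 translation and membrane insertion genes, KO1 had 1 higher and 2 lower, and KO2 1 higher and 0 lower, where 0 also fell at an unadjusted p under 0.05 and with limma-voom. Calls made up 20% of this list in KO1 and 6.67% in KO2, below the shares of all tested genes. MTRF1L, a release factor, rose in both clones (0.28 and 0.28, limma adjusted p = 0.0307 and 0.0337). MTFMT, which formylates the initiator tRNA, fell in KO1 (-0.25). With limma-voom 0 of this list were higher and 4 lower in KO1, so MTRF1L was not called higher there, and 3 were higher in KO2.

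Of 37 nuclear complex I subunits, KO1 had 3 higher and 8 lower, and KO2 3 higher and 3 lower. In all 29.7% of this list were called in KO1, below the 34.3% of all tested genes, and 16.2% in KO2, below 30.4%, with medians of -0.05 and -0.00076 on the log2 scale. NDUFB3, a membrane-arm subunit, rose in both clones (log2 fold changes 0.75 and 0.73), and NDUFV2, an iron-sulfur subunit of the matrix arm, fell in both (-0.44 and -0.58). The medians of their neighbours were 0.52 and 0.41 for NDUFB3 on chromosome 2, and -0.48 and -0.52 for NDUFV2 on chromosome 18. Of 17 complex I assembly factors, KO1 had 0 higher and 2 lower (NDUFAF3 by 0.22 and ECSIT by 0.19; 0 also rose at an unadjusted p under 0.05 and with limma-voom), and KO2 had 2 of each. Calls made up 11.8% of these factors in KO1 and 23.5% in KO2, also below the shares of all tested genes. NDUFAF1 fell in KO2 from 42.8 ± 2.64 to 26.9 ± 1.02 TPM (SD, n = 3; log2 fold change -0.67, limma adjusted p = 3.75e-05), and TMEM186 rose there by 0.28.

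Of 9 nuclear complex III subunits, the partners of MT-CYB, KO1 had 1 higher and 4 lower (median -0.08), and 0 were called in KO2 (median 0.06), where 3 were higher at an unadjusted p under 0.05 and 1 with limma-voom. The KO1 calls are 55.6% of this list, beside 34.3% of all tested genes. UQCRB, a subunit that binds ubiquinone, rose in KO1 by 0.29 and UQCR11 fell by 0.24. Of 6 complex III assembly factors, 1 rose and 1 fell in each clone. That is 33.3% of the list in each, beside 34.3% of all tested genes in KO1 and 30.4% in KO2. LYRM7, which hands over the Rieske protein, rose (log2 fold changes 0.34 and 0.58), and UQCC3, an assembly factor that stabilises newly made cytochrome b, fell (-0.58 and -0.44). Of 8 tested regulators of mitochondrial biogenesis, KO1 had 1 higher and 1 lower, and KO2 1 higher and 0 lower, with 0 lower there at an unadjusted p under 0.05 or with limma-voom. Calls made up 25% of these regulators in KO1 and 12.5% in KO2, below the shares of all tested genes. PPRC1, a coactivator of the PGC-1 family, rose in both clones (0.21 and 0.50, beside a neighbour median of 0.32 in KO2), and ESRRA, a nuclear receptor that drives respiratory genes, fell in KO1 (-0.38).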

How the data were processed

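The values used were log2 TPM of 15258 genes in 9 input libraries, as the authors deposited them, in 1 table whose columns were matched to samples by name. The submitters' processing notes name featureCounts, edgeR 3.12.1 in R 3.3.3, HISAT2 2.0.4, deepTools 3.0.2 and SAMtools 1.7, with build hg38, and give no role for each. Annotation, strand setting and gene filter are not stated there. Per the labels' protocols, mRNA was purified from total RNA on magnetic beads before a directional library kit was used. TPM sums to a constant over the listed genes, so a rise in some lowers the rest.

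Whole reads were recovered from the steps between values for 100% of genes (tolerance 1e-05, largest distance 6.3e-09), 84602764 in all. Symbols came from GENCODE on hg38 for 15138 of 15258 identifiers. limma 3.58.1 in R 4.3.3 was fitted to the 14512 genes that averaged 1 TPM or more, with 1 mean per line, a variance trend and 6 residual degrees of freedom, two-sided, with Benjamini-Hochberg adjustment over all tested genes. Read recovery and the fit were tested on simulated data. Library pairs within a line were further apart than counting explains (chi-square over genes, divided by its degrees of freedom, 1.24 to 3.94), so each counted as 1 replicate.

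The members and gene lists were chosen with earlier results of these data known. All 8 members were named; from each list, at most the 2 called genes of largest change per clone; and the 5 nuclear genes most correlated with the members' mean. Markers were described by their summed level. Medians over the 50 nearest tested genes were added after the values were seen. Alternatives were other offsets, filters, scalings, limma-voom on reads, a fit of 2 lines, a block for the replicate letter, and fits without 1 library. Intervals cover spread between libraries and counting error covers reads only, which carry no molecular identifiers. Sequences were read from hg38.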

Additional observations from a re-analysis of the deposited data

Results flagged for a closer look

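The change in the knockout differed between the clones for 6 members, by the test of KO2 against KO1 itself (limma with Benjamini-Hochberg adjustment over 14512 genes). The log2 difference of KO2 minus KO1 was -0.56 for MT-CYB (limma adjusted p = 0.000125), -0.39 for MT-ND1 (0.000477), -0.30 for MT-ND2 (0.00762), -0.30 for MT-ND4L (0.00593), -0.28 for MT-ND5 (0.0044) and -0.28 for MT-ND4 (0.0145). In each of the 6, all 3 KO2 libraries lay below all 3 KO1 libraries. Each clone is 1 line, so a difference between clones and a difference between edits at PCIF1 cannot be told apart.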

How the results depend on the processing

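Outside the centring on the mRNAs of complexes IV and V, 20 alternatives were run, and the calls of MT-ND1, MT-ND2, MT-ND4L, MT-ND4, MT-ND5 and MT-CYB in KO1 and of MT-ND2 and MT-CYB in KO2 held in 20 of 20. In KO2 MT-ND4 was called after quantile normalization (0.19, limma adjusted p = 0.00217) and MT-ND5 with only the 2 lines compared (0.11, 0.0428). Of KO2 against KO1, all 6 calls held in 20 of 20 except MT-ND4, at 19. Centring on complexes IV and V gave 3 members higher and 1 lower in KO1, 4 higher in KO2, and 2 higher and 1 lower in KO2 against KO1. By its construction this sets each member against the mean of those mRNAs. In KO2, where MT-CO2 and MT-CO3 fell (log2 fold changes -0.22 and -0.35), it raised the members' values. MT-ND1 went from 0.10 to 0.21 there and MT-ND5 from 0.11 to 0.22. The centring reversed MT-ND3 (-0.26) and MT-ND6 (-0.22) in KO1 and MT-ND6 (0.050) in KO2. Between the clones it reversed MT-ND1 (0.033), MT-ND2 (0.12), MT-ND3 (0.38), MT-ND4 (0.14), MT-ND4L (0.11), MT-ND5 (0.14) and MT-ND6 (0.27).

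The other reversals were of MT-ND3 and MT-ND6, which were not called. Quantile normalization gave -0.038 and -0.011 for them in KO1, -0.036 for MT-ND3 in KO2 and 0.0022 for it between the clones. Median centring gave 0.012 for MT-ND3 between the clones, and limma-voom -0.014 in KO1 and -0.015 in KO2. The cause was not tested. With each library left out in turn, MT-ND3 ran from -0.016 to 0.12 in KO1, -0.082 to 0.082 in KO2 and -0.12 to 0.031 between the clones, and MT-ND6 from -0.13 to 0.22 in KO1 and -0.27 to 0.074 in KO2. Genes called then ran from 3758 to 5206, 3401 to 4311 and 2952 to 3974 in the 3 comparisons. By reads in place of TPM, mitochondrial genes took 3.58% in control, 3.58% in KO1 and 3.45% in KO2.

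Over all tested genes, libraries with the same letter did not deviate together (correlations -0.074 to 0.037 over 9 pairs, and -0.11 to 0.12 over 18 pairs of other letters). With 3 libraries per line, correlations over all genes cannot exclude shared handling that touched only some genes. With the letter as a replicate block, 4375, 3877 and 3516 genes were called in the 3 comparisons, and 6 members were higher in KO1, 2 higher in KO2, and 6 lower in KO2 than in KO1. The shallowest value of a member was MT-ND3 in KO2 library B with 1223 reads, and its counting error was 2.53% of the mean over KO2, below the spread of 11% between libraries.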

Other observations

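Of 8 mitochondrial tRNA genes in the table, MT-TL1 and MT-TE were called in KO1 against the control line, and MT-TL1, MT-TI and MT-TE in KO2. Of all tested genes 34.3% were called in KO1 and 30.4% in KO2. Each of the 3 tRNA genes lies next to a complex I gene. MT-TL1, between MT-RNR2 and MT-ND1, rose from 184 ± 30.6 TPM in control to 286 ± 54.6 in KO1 and 294 ± 48.8 in KO2 (SD, n = 3 each; limma adjusted p = 0.0128 and 0.00962), on 29 to 64 reads per library. MT-TI, which starts at the base after MT-ND1 ends, rose in KO2 from 41.3 ± 4.29 to 80.5 ± 16.0 TPM (limma adjusted p = 0.00682), on 6 to 19 reads. MT-TE borders MT-ND6 on the light strand, with MT-CYB on its other side. It fell in both clones, its KO1 libraries overlapping the control, from 66.2 ± 19.4 TPM to 32.5 ± 14.8 and 30.4 ± 3.72 TPM (limma adjusted p = 0.0221 and 0.0247), on 3 to 15 reads. Whether these reads come from tRNAs or from uncut transcripts was not tested.

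The nuclear copies of 2 complex IV mRNAs stood apart in control library A. MTCO2P12, 98.2% identical to MT-CO2, measured 24.96, 293 and 170 TPM in control libraries A, B and C. MTCO1P12 measured 19.4, 90.2 and 59.7 TPM. The same library was lowest of 9 for MT-ND6, at 1187 TPM. No member has a copy in the table with such a gap: MTND2P28 measured 89.1, 97.0 and 87.9 TPM in these libraries.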
